A study of Mus musculus with 6 samples.

Results

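Voltage-gated potassium channels were examined here as a gene family, through the rows of the deposited expression table whose symbol begins with Kcna, Kcnb, Kcnc, Kcnd, Kcnf, Kcng, Kcnh, Kcnq, Kcns or Kcnv followed by a number. This rule found 40 of the 24453 genes in the table. Of these, 33 had a mean of at least 1 FPKM over all libraries and were tested, and 7 lay below it and are described by level only. FPKM is the number of fragments per kilobase of exon and per megaread mapped, so levels can be compared between genes only as far as the gene lengths used are right.

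Messenger RNA of visual cortex was sequenced from males of the C57BL/6J strain at postnatal day 14, with 3 libraries of *Chrdl1* knockouts (KO) and 3 of wild type (WT). The deleted gene codes for a secreted protein, chordin-like 1, that binds bone morphogenetic proteins and blocks their signal. Both genotypes were perfused with paraformaldehyde before dissection, and the labels give neither the design of the knockout allele nor its cell type. Each library title carries a middle number, 1, 2 or 3, that 1 KO and 1 WT library share and that goes with the title codes 1013, 1011 and 1012 in that order. The labels do not say what this title number stands for. They also do not state that the libraries are from different animals, and each p-value refers to the spread among libraries, which may be technical. Values given as 3 in a row follow title numbers 1, 2 and 3.

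A voltage-gated potassium channel is built from 4 pore-forming subunits that open when the membrane depolarises and let potassium out of the cell, which repolarises it. In the cortex, Kv1 channels sit mainly on axons, Kv2 channels on cell bodies and proximal dendrites, Kv3 channels in fast-spiking interneurons and nerve terminals, and Kv4 channels on dendrites. Kv7 channels carry the M-current that restrains repetitive firing, and the Kcnh genes encode the eag, erg and elk channels. The products of Kcnf, Kcng, Kcns and Kcnv are electrically silent: they form no channel on their own and join Kv2 subunits in mixed tetramers.

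Estimated depth was 27.5 to 38.2 megareads in WT and 22.7 to 31.9 megareads in KO. *Chrdl1* itself was 3.44 ± 0.299 FPKM in WT and 0.161 ± 0.036 FPKM in KO, 4.67% of the WT level (SD and n = 3 for each). Log2 fold changes are of FPKM + 1 unless stated otherwise, a scale that understates changes of genes with low FPKM. That of *Chrdl1* was -1.93 (SE 0.09), with an adjusted p of 0.000489 by limma with Benjamini-Hochberg adjustment. By exact permutation (2-sided) its p was 0.1, the lowest possible with 3 libraries against 3. *Slc17a7*, the vesicular glutamate transporter of cortical excitatory neurons, lay between 565.1 and 689.1 FPKM in the 6 libraries. Markers of striatal neurons were present too and differed between libraries. The 12 striatal genes of the list summed to 324.4, 301.5 and 259.7 FPKM in WT and to 134.2, 317.8 and 133.7 FPKM in KO, none of them at 0, so KO libraries 1 and 3 stood below the other 4. Summed markers of meningeal fibroblasts were 51.9 to 57.5 FPKM in WT and 59.0 to 72.3 FPKM in KO, without overlap. None of these fibroblast genes was called, several lists were read, and the sums were not tested. With 3 libraries against 3, full separation reaches only the permutation limit of 0.1 given above. For neurons, cortical excitatory neurons, parvalbumin interneurons, mature oligodendrocytes, astrocytes, microglia, vessels, hippocampus, thalamus, choroid plexus and blood the summed levels of KO and WT overlapped, and no gene of any of these lists was called. Overlap here does not mean even levels. The choroid plexus list summed to 154.1, 6.9 and 9.0 FPKM in WT and to 9.5, 7.2 and 316.3 FPKM in KO. Blood stood at 43.8 FPKM in KO library 2, against 8.8 to 13.0 FPKM in the others. All 12 oligodendrocyte genes were lower in KO on average. Every tested gene of hippocampus (5), choroid plexus (3) and blood (4) was higher, and the other overlapping lists went both ways. In such bulk tissue, fewer cells of a type and less RNA per cell cannot be told apart.

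The promoters of 25 of the 40 members were in the RefSeq table for GRCm38.p6, the assembly known as mm10. The 4 shown are those of *Kcna3*, *Kcnh5* and *Kcnh7*, 3 members whose levels moved together between title numbers, and that of *Kcnf1*, the member with the highest level. Each covers the 250 bases before the annotated start, 5′ to 3′ on the strand of the gene, and capitals mark GC boxes, searched as GGGCGG on both strands without regard to other motifs.
Kcna3 (chr3:107035912-107036161, + strand): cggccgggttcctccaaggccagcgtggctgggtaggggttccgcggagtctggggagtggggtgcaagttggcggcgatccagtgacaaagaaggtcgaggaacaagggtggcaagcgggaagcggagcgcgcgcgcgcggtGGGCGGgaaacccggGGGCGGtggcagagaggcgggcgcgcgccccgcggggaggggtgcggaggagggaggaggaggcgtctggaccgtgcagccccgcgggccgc
Kcnh5 (chr12:75177333-75177582, - strand): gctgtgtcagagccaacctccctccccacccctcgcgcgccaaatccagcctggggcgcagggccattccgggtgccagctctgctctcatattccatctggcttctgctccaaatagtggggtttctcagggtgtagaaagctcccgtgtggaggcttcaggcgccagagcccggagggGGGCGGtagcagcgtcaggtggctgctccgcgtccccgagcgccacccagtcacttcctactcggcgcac
Kcnh7 (chr2:63184288-63184537, - strand): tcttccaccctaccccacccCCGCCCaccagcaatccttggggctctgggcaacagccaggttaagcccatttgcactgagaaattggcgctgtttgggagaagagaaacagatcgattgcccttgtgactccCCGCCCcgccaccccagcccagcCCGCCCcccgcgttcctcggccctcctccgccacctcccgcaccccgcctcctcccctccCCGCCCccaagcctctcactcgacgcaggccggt
Kcnf1 (chr12:17176889-17177138, - strand): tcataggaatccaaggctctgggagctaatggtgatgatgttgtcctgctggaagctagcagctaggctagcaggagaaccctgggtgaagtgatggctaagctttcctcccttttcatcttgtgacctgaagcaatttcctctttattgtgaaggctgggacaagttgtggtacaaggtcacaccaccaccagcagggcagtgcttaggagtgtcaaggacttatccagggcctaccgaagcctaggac

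The *Kcna3* window held 2 GC boxes and 31 CpG dinucleotides at 74.4% G and C, the *Kcnh5* window 1 GC box and 16 CpG at 65.6%, and the *Kcnh7* window 4 GC boxes and 16 CpG at 67.6%. The *Kcnf1* window held no GC box and 1 CpG at 51.2%. *Kcnf1* was itself called between title numbers, and *Kcnq3*, which moved like *Kcna3*, was not among the 25 members matched. Among the 25 members matched, 15 had a GC box in this window, against 32.7% of all 32851 promoters in the table. The median member had 16 CpG dinucleotides and 63.2% G and C, against 6 and 52.4% over all promoters. None of the 25 held TATAAA, which 12.4% of all promoters held on either strand. These are matches of letters and not binding sites, and *Kcnc4*, whose lowest mean was at title number 2, also held 1 GC box.

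The members together summed to 430.4 ± 12.9 FPKM (SD, n = 6). They came to 409.1, 448.4 and 427.6 FPKM in WT and to 435.3, 433.9 and 428.0 FPKM in KO, a KO to WT ratio of 1.01 with overlapping groups. The electrically silent genes made up the largest share of the 9 subfamilies, 24.4% of the family sum, at 105.2 ± 4.90 FPKM. Kv3 followed with 17.2%, then Kv7 with 14.7%, Kv1 with 14.5%, elk with 10.3%, Kv4 with 8.14%, Kv2 with 4.72%, eag with 3.66% and erg with 2.33%. This order rests on the exon lengths used, which for *Kcnq3* and *Kcna1* were far from the longest annotated transcript. Over the libraries, Kv7 (55.7 to 70.85 FPKM) and Kv1 (59.2 to 67.3 FPKM) also overlapped. The silent genes lay between 98.9 and 112 FPKM in each library and the Kv2 genes, whose products they join, between 17.2 and 22.9 FPKM.

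**Figure D1:**
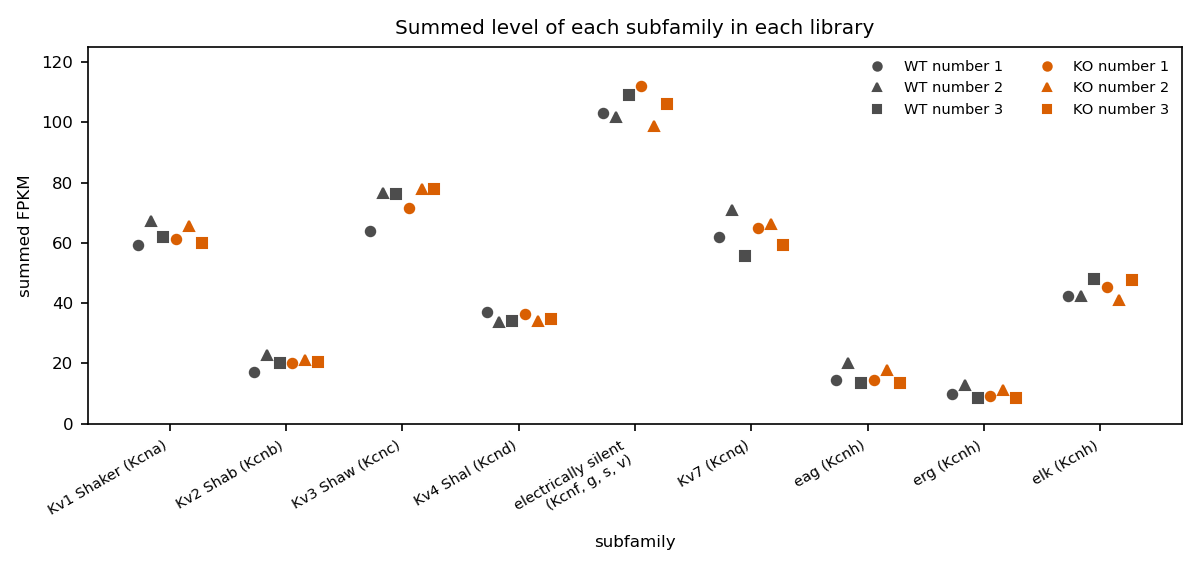
Summed FPKM of each subfamily (y axis, linear from 0) in each of the 6 libraries, WT in grey and KO in orange, with the marker shape giving the title number. Silent genes lie between 98.9 and 112 FPKM, above the other subfamilies in every library, and KO and WT points overlap in each subfamily.

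The KO to WT ratio of subfamily sums ran from 0.924 for erg to 1.05 for Kv3, and the ranges of KO and WT overlapped in all 9. Within title numbers the ratio did not keep 1 direction for most subfamilies. Kv3 was higher in KO at each number, by ratios of 1.12, 1.02 and 1.02, and erg was lower at each, by 0.955, 0.86 and 0.984. Kv7 was at ratios of 1.05, 0.935 and 1.07, and the silent genes at 1.09, 0.973 and 0.97. In Kv1, Kv2, Kv3, Kv7, eag and erg the libraries of title number 2 held the highest sums in both genotypes, for erg 12.9 FPKM in WT and 11.1 in KO against 8.49 to 9.75 FPKM in the other 4. For Kv3 numbers 2 and 3 were nearly equal, at 76.4 and 76.3 FPKM in WT and 77.96 and 77.84 in KO.

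Among single members, *Kcnf1* had the highest mean level, 48.3 FPKM, ahead of *Kcnh3* with 42.1, and *Kcnc4* had 32.0. Neighbours in the order mostly overlapped over the 6 libraries. A member lay wholly above the next one in the order only after *Kcnh3*, *Kcnc4*, *Kcnh1*, *Kcnd3*, *Kcng4* and *Kcnh8*. The lowest 7 were *Kcnh6* at 0.520 FPKM, *Kcnq1*, the cardiac and epithelial Kv7 gene, at 0.386, *Kcng3* at 0.168, *Kcnh8* at 0.159, *Kcna10* at 0.0328, *Kcna7* at 0.0095 and *Kcnv2*, known from photoreceptors, at 0.00567. In *Kcna10*, *Kcna7* and *Kcnv2* no library held more than 5 reads, close to the 3 reads that a count of 0 allows.

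**Figure D2:**
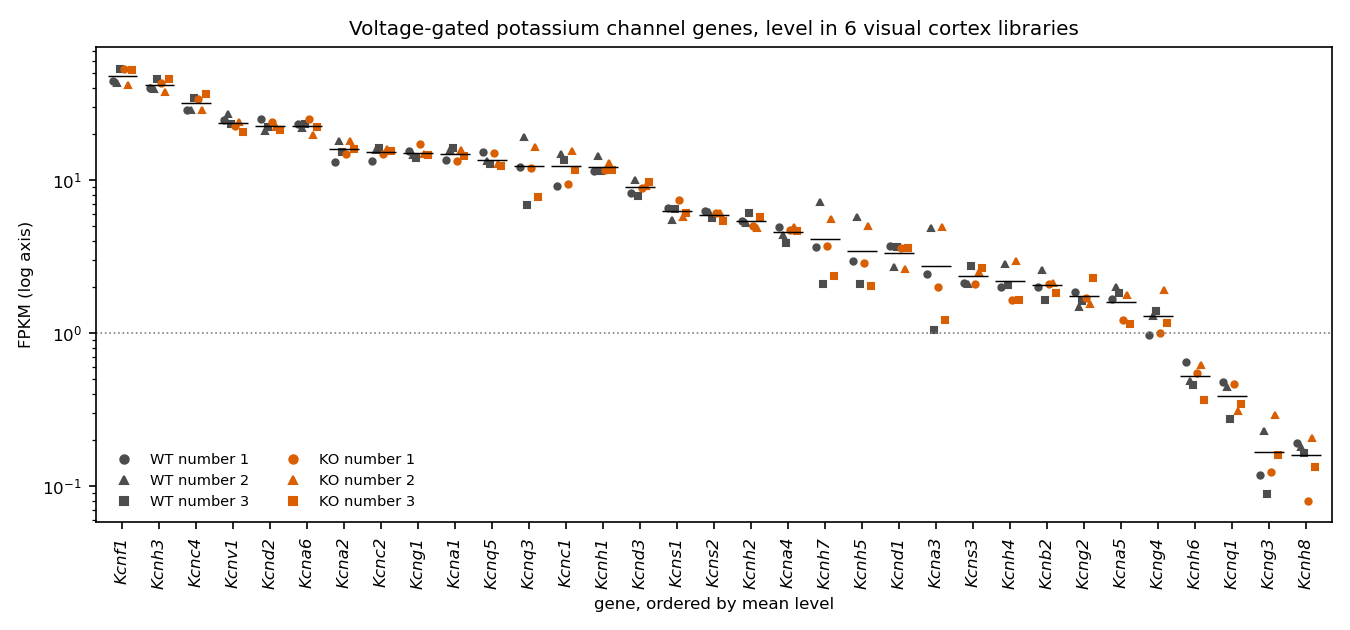
FPKM (y axis, log scale) of 33 members with a nonzero value in every library, ordered by mean level, 1 point per library with WT in grey, KO in orange and the marker shape giving the title number; bars are means and the dotted line is the minimum mean of 1 FPKM. Points of KO and WT intermix along the order, while *Kcnq3*, *Kcnh7*, *Kcnh5* and *Kcna3* spread widely, with both title number 2 libraries on top.

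The order also rests on the exon lengths in the deposited table. Against the longest transcript of each gene in GENCODE M21, the table's length was shorter by more than 1.5 times for 6 members, among them *Kcnq3* (4.13 times), *Kcnh7* (3.52), *Kcnb2* (2.80), *Kcnc1* (1.79) and *Kcng1* (1.77). It was longer by more than 1.5 times for 2, *Kcna1* (8966 against 4031 bp) and *Kcna7* (3490 against 2182 bp). The levels of these members, and with them the subfamily shares, shift with the gene model chosen. Exons of 9 members overlapped an annotated gene on the other strand, such as *Kcnh3* with *Mcrs1*, *Kcnh7* with *Gca*, *Kcnd3* with *Kcnd3os*, *Kcnq1* with *Kcnq1ot1*, and *Kcna6*, *Kcng2* and *Kcnq5* with loci known only by clone or model names. No strand setting of the counting is stated in the sources used, so these values may hold reads of the partner.

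No member passed the test between KO and WT, in a main fit that did not pair libraries by title number. At an adjusted p under 0.05 by limma with Benjamini-Hochberg adjustment, 0 of the 33 members were called, where 0.00777% of the 12863 genes tested were called, a single gene, *Chrdl1*. At an unadjusted p under 0.05 there were 0 members and 81 of all genes, and in a voom fit of the recovered reads 1 member and 90 of all genes. Without KO replicate 2 there were 2 members and 207 of all genes. The lowest adjusted p of a member was 0.99986. The median log2 fold change of the members was -0.02, against 0.01 over all genes tested, and they ran from -0.26 for *Kcna5* to 0.11, 16 higher and 17 lower in KO. The 95% interval lay within a 1.5-fold change of FPKM + 1 in either direction for 29 of the 33. That was 87.9%, against 95.9% of all genes tested. The other 4 were *Kcna3*, *Kcnh5*, *Kcnh7* and *Kcnq3*. With the title number as a replicate block the intervals of all 33 lay within this limit, as did 99.1% of those of all genes. That of *Kcna3* was -0.20 to 0.16. For members of a few FPKM, such as *Kcna5*, the limit allows a larger change in FPKM itself. In no member did all KO libraries lie above all WT libraries, which 1.76% of all genes tested did, or below them, which 1.19% did.

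Within title numbers, KO was above WT at all 3 numbers in 4 members, 12.1% of the 33 against 12.3% of all genes tested. Among these were *Kcna2*, *Kcnc4* and *Kcng1*. KO was below WT at all 3 in 7 members, 21.2% against 9.59% of all genes, namely *Kcna5*, *Kcnd1*, *Kcnh2*, *Kcnh5*, *Kcnq5*, *Kcns2* and *Kcnv1*. A fit with the title number as a replicate block, in which 0.00777% of genes were called, also called 0 members, and 2 of them, *Kcnv1* and *Kcna5*, had an unadjusted p under 0.05, as did 503 of all genes.

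**Figure D3:**
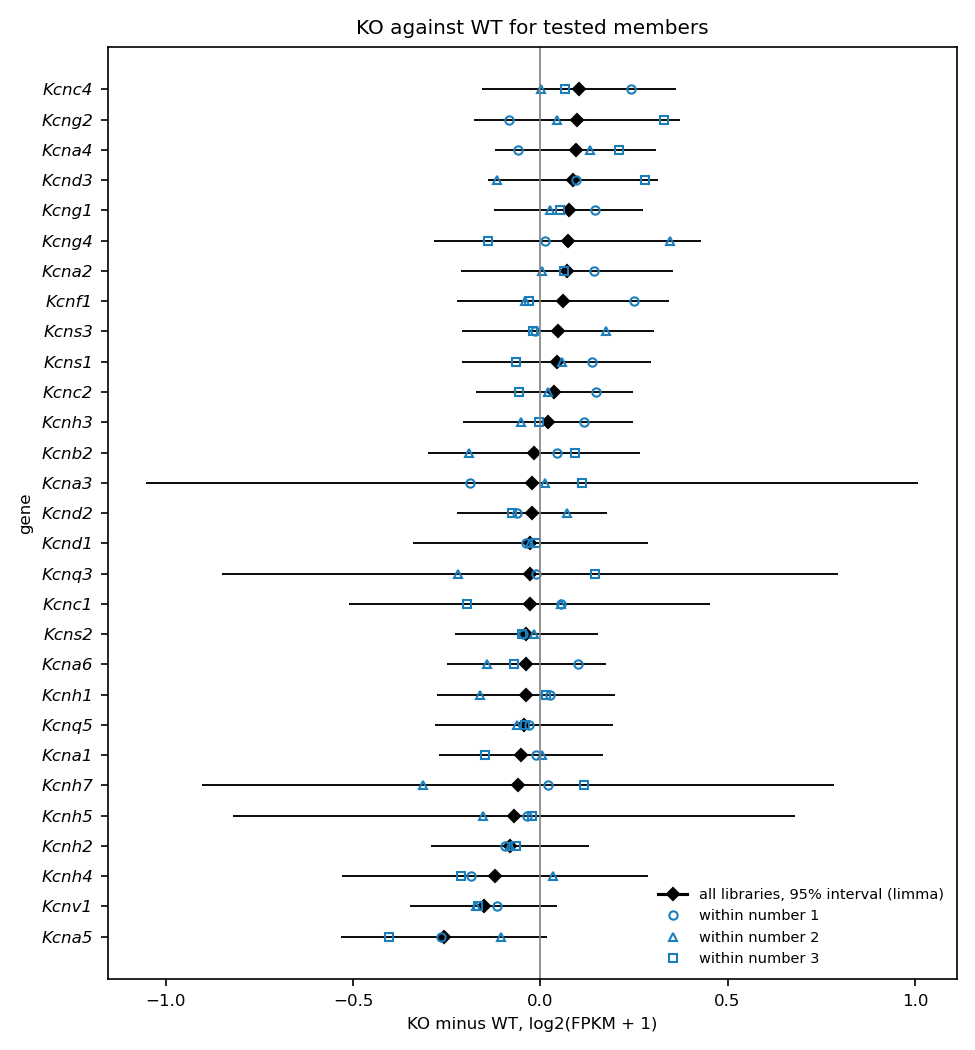
KO minus WT on the log2(FPKM + 1) scale (x axis) for 29 tested members (y axis), with diamonds and lines for the limma estimate and its 95% interval and open markers for the difference within each title number. All 29 intervals span 0, and the widest belong to *Kcna3*, *Kcnh7*, *Kcnq3* and *Kcnh5*.

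Of the axonal Kv1 genes, *Kcna1* read 13.6, 15.8 and 16.2 FPKM in WT and 13.4, 15.9 and 14.5 in KO, and *Kcna2* 13.3, 18.1 and 15.4 in WT and 14.8, 18.1 and 16.1 in KO. In both genes both genotypes were lowest at title number 1. Their levels are not compared here, since the length used for *Kcna1* exceeds its longest annotated transcript. *Kcna6* read 23.3, 22.1 and 23.5 FPKM in WT and 25.0, 19.9 and 22.3 in KO, without separating the genotypes. It was the highest Kv1 gene at the exon lengths used, and its rank over *Kcna1* rests on those lengths. *Kcna4*, whose channels inactivate quickly, averaged 4.58 FPKM.

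*Kcna5*, a delayed rectifier known from heart muscle, had the smallest unadjusted p of the family in the KO to WT comparison. Its levels were 1.67, 1.99 and 1.84 FPKM in WT and 1.23, 1.78 and 1.15 in KO, from 97 to 192 reads per library, so KO libraries 1 and 3 were low and KO library 2 lay within the WT range. The log2 fold change was -0.26 (95% interval -0.53 to 0.02), and limma with Benjamini-Hochberg adjustment gave an unadjusted p of 0.0627 and an adjusted p of 0.99986. In the limma fit with the replicate block the interval was -0.447 to -0.069, with an unadjusted p of 0.0144 and a Benjamini-Hochberg adjusted p of 0.999. KO libraries 1 and 3 were also the ones with low striatal markers, such as *Ppp1r1b*, the dopamine-regulated phosphatase inhibitor DARPP-32, at 102.9, 91.7 and 81.1 FPKM in WT and 31.8, 101.4 and 35.9 in KO. All 12 striatal genes were lower in KO on average, with a median log2 fold change of -0.60, none of them called, and their part in the *Kcna5* values was not tested. *Kcnh4*, an elk channel gene whose values were chosen after they were seen, was also lowest in KO libraries 1 and 3. It read 2.02, 2.85 and 2.08 FPKM in WT and 1.65, 2.94 and 1.66 in KO, so WT too was lower at numbers 1 and 3. The limma F-test called *Kcnh4* between title numbers, with a Benjamini-Hochberg adjusted p of 0.0164. Any tie of *Kcnh4* to the striatal genes was not tested.

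The Kv2 gene *Kcnb2*, a delayed rectifier, averaged 2.05 FPKM. *Kcnf1*, a silent partner of Kv2 subunits, read 44.9, 43.1 and 53.8 FPKM in WT and 53.5, 41.9 and 52.6 in KO. It was thus lowest at title number 2 in both genotypes. *Kcng1*, another silent gene, was at 15.6, 14.6 and 14.1 FPKM in WT and 17.3, 14.9 and 14.7 in KO.

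*Kcnv1* is a silent subunit gene of the forebrain. It read 24.8, 27.2 and 23.5 FPKM in WT and 22.8, 24.0 and 20.8 in KO, from 2443 to 4250 reads per library. KO was lower than WT by a similar amount at each title number, -0.12, -0.17 and -0.17 on the log2(FPKM + 1) scale, although the genotypes overlapped, since KO at number 2 exceeded WT at number 3. The log2 fold change was -0.15 (95% interval -0.35 to 0.05), with an unadjusted p of 0.114 by limma and an adjusted p of 0.99986 after Benjamini-Hochberg adjustment. In limma with the replicate block the interval narrowed to -0.251 to -0.051, with an unadjusted p of 0.00888 and a Benjamini-Hochberg adjusted p of 0.999. The remaining silent genes averaged 6.31 FPKM for *Kcns1*, 5.95 for *Kcns2*, 2.37 for *Kcns3*, 1.74 for *Kcng2* and 1.29 for *Kcng4*.

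The Kv3 genes were led by *Kcnc4*, at 28.8, 28.9 and 34.8 FPKM in WT and 34.2, 28.9 and 36.4 in KO. *Kcnc2* read 13.3, 15.9 and 16.3 FPKM in WT and 14.9, 16.1 and 15.6 in KO. Neither gene separated the genotypes. *Kcnc1*, which with *Kcnc2* serves fast spiking, was at 9.12, 14.9 and 13.6 FPKM in WT and 9.52, 15.5 and 11.7 in KO, lowest at title number 1 in both genotypes. *Pvalb*, the calcium buffer that marks many fast-spiking interneurons, was likewise lowest there, at 13.8, 21.9 and 34.3 FPKM in WT and 12.1, 29.2 and 22.2 in KO, and its part in the *Kcnc1* values was not tested. Other genes of the parvalbumin list had other orders: *Syt2* and *Lhx6* were lowest at number 3 in both genotypes.

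Of the Kv4 genes, which give the A-type current of dendrites, *Kcnd2* read 25.1, 21.2 and 22.4 FPKM in WT and 24.0, 22.3 and 21.2 in KO. *Kcnd3* averaged 8.99 FPKM and *Kcnd1* 3.33 FPKM. The Kv4 sum varied little, from 33.9 to 37.1 FPKM over the 6 libraries.

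Of the Kv7 genes, *Kcnq3*, a subunit of the M-channel, read 12.1, 19.3 and 6.92 FPKM in WT and 12.0, 16.4 and 7.76 in KO. Its means by title number differed by 2.43-fold, in the same order in both genotypes. *Kcnq5* read 15.3, 13.3 and 12.7 FPKM in WT and 15.0, 12.7 and 12.3 in KO, highest at number 1 in both genotypes.

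Among the Kcnh genes, *Kcnh3*, an elk channel gene of the forebrain, read 40.0, 39.3 and 45.9 FPKM in WT and 43.5, 37.8 and 45.8 in KO. The eag gene *Kcnh1* read 11.5, 14.5 and 11.5 FPKM in WT and 11.7, 12.9 and 11.6 in KO, and the erg gene *Kcnh2*, known for the repolarising current of the heart, averaged 5.40 FPKM. None of these 3 separated the genotypes.

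Many genes of the table, members among them, differed between title numbers. In the limma F-test of the number, with genotype in the model, 13 of the 33 members, or 39.4%, passed an adjusted p of 0.05 (Benjamini-Hochberg), against 30.6% of all genes tested. Among them were *Kcna3*, *Kcnh5*, *Kcnq3*, *Kcnh7*, *Kcnc1*, *Kcna2*, *Kcnh4*, *Kcnd1*, *Kcnq5*, *Kcnc4*, *Kcnh3* and *Kcnf1*. Without the filter on low values 5 members and 1347 of all genes were called. For 32 of the 33 members, as for 12028 of the 12863 genes tested, the range of the 3 title number means was larger than the difference between the genotype means. Such a range, over more means of fewer libraries each, tends to exceed the genotype difference even without a true effect. The count therefore does not weigh title number against genotype. Title number 2 was the highest in 8 of the 13, or 61.5%, against 36.5% of all genes called, and the lowest in 4, or 30.8%, against 44.8%.

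*Kcna3*, a Kv1 gene best known from T lymphocytes and also expressed in neurons, had the smallest p. Its single exon lies on chromosome 3 from 107036162 to 107038129 (mm10, + strand), and *Kcna2* starts on the same strand at 107101567. It read 2.42, 4.89 and 1.05 FPKM in WT, from 182, 264 and 70 reads, and 2.01, 4.94 and 1.21 FPKM in KO, from 104, 220 and 76 reads. Both genotypes thus gave the same order, with title number 2 on top and number 3 at the bottom. The means of these numbers differed by 4.36-fold, with a limma adjusted p of 0.00159 after Benjamini-Hochberg adjustment, whereas *Kcna2* differed by 1.29-fold.

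The eag gene *Kcnh5* gave the same order, at 2.96, 5.71 and 2.09 FPKM in WT and 2.87, 5.04 and 2.04 in KO, with 2.60-fold between numbers and a limma adjusted p of 0.0018. *Kcnh7*, an erg gene, read 3.68, 7.21 and 2.09 FPKM in WT and 3.74, 5.61 and 2.35 in KO, with 2.88-fold and a limma adjusted p of 0.00274. *Kcnq3*, with the levels given above, had a limma adjusted p of 0.00194. These 4 came from 4 different subfamilies and chromosomes 3, 12, 2 and 15, and in each the 2 libraries of number 2 were the highest of all 6. They were the 4 members with the smallest p between title numbers, so this separation follows in part from that choice. Its share over all genes tested was not counted.

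**Figure D4:**
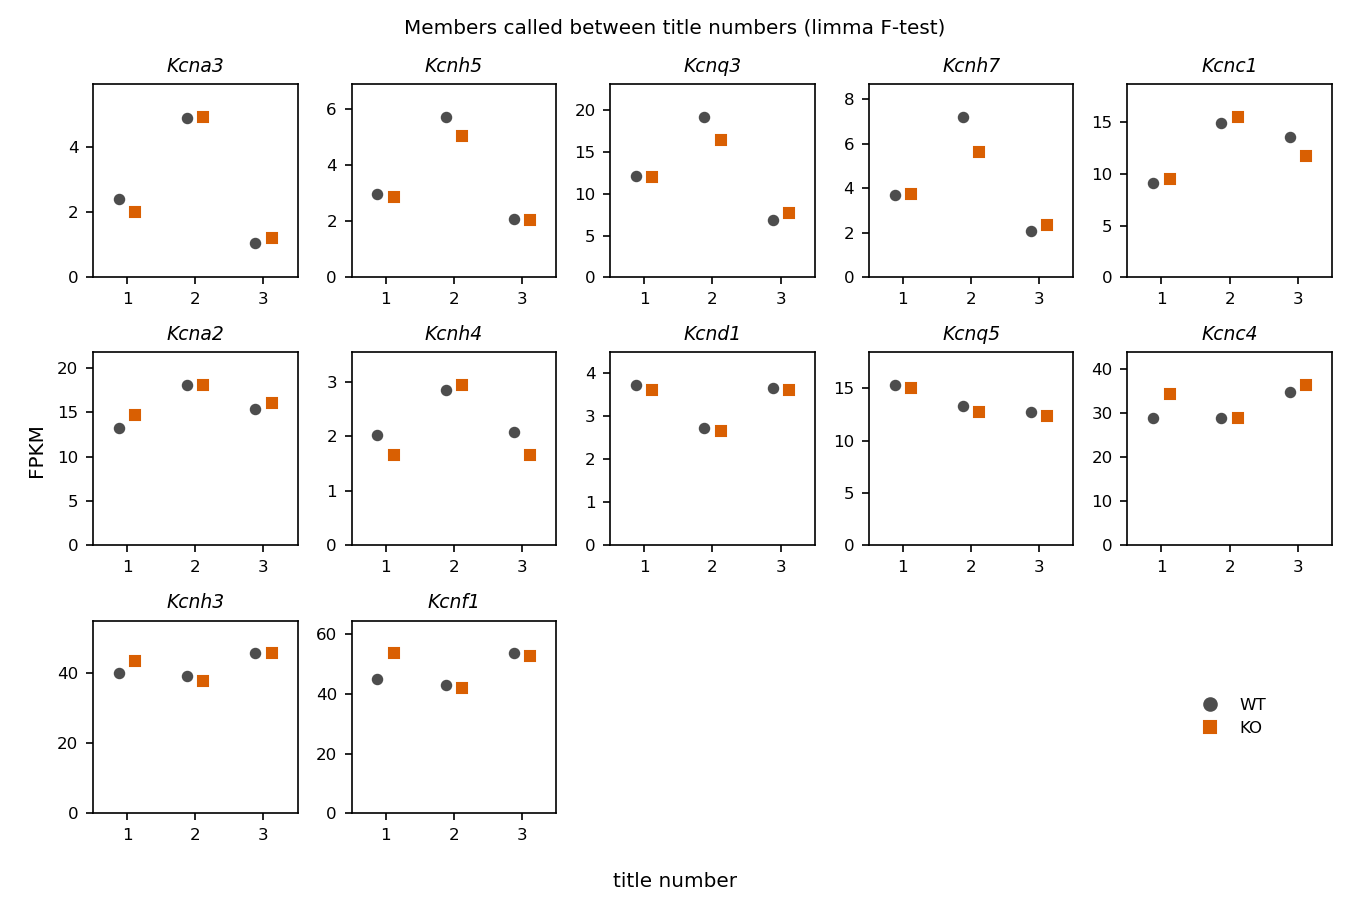
FPKM (y axes, linear from 0) against title number (x axes) for 12 members called between title numbers, WT as grey circles and KO as orange squares, in order of p. In *Kcna3*, *Kcnh5*, *Kcnq3* and *Kcnh7* both genotypes peak at number 2 and are lowest at number 3, while *Kcnd1*, *Kcnc4*, *Kcnh3* and *Kcnf1* have their lowest mean at number 2.

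Smaller differences between numbers were found in the other 9 called members. *Kcnc1*, with a limma adjusted p of 0.00526, differed by 1.63-fold, and the other 8 by 1.19-fold (*Kcnh3*) to 1.58-fold (*Kcnh4*). *Kcnf1*, *Kcnh3* and *Kcnc4*, 3 of the 4 members with the highest level, each had their lowest mean at title number 2. *Kcnd1*, the X-linked Kv4 gene, was lowest there in both genotypes, at 2.72 FPKM in WT and 2.64 in KO against 3.60 to 3.73 in the other 4 libraries.

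Other genes moved with the title number in the same libraries and were chosen after their values were seen. The long noncoding RNA *Meg3* read 105.4, 200.7 and 80.9 FPKM in WT and 77.7, 169.3 and 52.4 in KO, and *Malat1*, a nuclear noncoding RNA, 14.0, 25.5 and 9.24 in WT and 12.2, 19.4 and 7.86 in KO. Both had the order of *Kcna3*. *Syt2*, a synaptotagmin of fast-spiking terminals, had it too, at 3.55, 5.02 and 2.25 FPKM in WT and 3.10, 5.85 and 2.26 in KO, whereas *Dpysl3*, a gene of growing axons, was highest at number 1, at 68.2, 34.2 and 28.3 FPKM in WT and 68.4, 33.2 and 33.4 in KO. Of the marker lists, 10 of 12 genes of mature oligodendrocytes and 5 of 6 of parvalbumin interneurons were called between numbers, with 30.6% over all genes tested. Other lists exceeded that share too, such as thalamus with 3 of 4, astrocytes with 5 of 8 and neurons with 3 of 5. The lists of striatal neurons, microglia, meningeal fibroblasts and vessels lay below it. The oligodendrocyte genes summed to 1831, 2434 and 3033 FPKM in WT and 1447, 2787 and 2174 in KO, and the parvalbumin list to 147.1, 168.0 and 183.4 in WT and 131.7, 174.8 and 159.1 in KO, with no gene of either at 0. The part of these genes in the members' values was not tested.

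Auxiliary subunits, partners and the other potassium channels were read from lists of 73 genes in the table, of which 55 were tested. By limma with Benjamini-Hochberg adjustment 0 of the 55 were called between KO and WT, in either direction. Among partners of Kv1 channels, *Dlg4*, which encodes the scaffold PSD-95, was at 303.7 ± 8.43 FPKM in WT and 301.5 ± 4.07 FPKM in KO (SD and n = 3 for each), and the median log2 fold change of that list was 0.0025. For Kv4 channels, *Dpp6* was at 70.9 ± 1.5 and 74.4 ± 4.96 FPKM in WT and KO, and *Kcnip2* at 57.6 ± 4.30 and 54.6 ± 3.91. Of the Kv2 partners, *Vapa*, an anchor of endoplasmic reticulum to the plasma membrane, was at 105.0 ± 8.12 FPKM in WT and 100.5 ± 7.04 in KO. The 1 tested Kcne gene, *Kcne1l*, was at 5.60 ± 1.83 FPKM in WT and 4.38 ± 0.724 in KO, with a log2 fold change of -0.27 (SE 0.19).

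Among channels of other families, *Kcnmb4*, a subunit of large-conductance calcium-activated channels, averaged 63.7 ± 7.69 FPKM in WT and 66.8 ± 7.30 in KO, and *Kcnt1*, a sodium-activated channel gene, at 14.6 ± 2.47 and 13.4 ± 1.99. The inward rectifier gene *Kcnj4* averaged 61.6 ± 8.29 FPKM in WT and 60.4 ± 4.17 in KO, and *Kcnj9* at 40.9 ± 5.47 and 44.7 ± 3.28. *Kcnk1*, a two-pore leak channel gene, was at 42.1 ± 3.55 and 41.9 ± 1.76 FPKM, and *Hcn2*, which encodes a channel of the hyperpolarisation-activated current, at 25.5 ± 0.983 and 26.0 ± 1.08 (all SD, n = 3). Each of these differences was smaller than the spread between libraries of a genotype, apart from *Kcnj9*, where it exceeded the KO spread only. The second in level of their lists were *Dlg2* at 101.0 FPKM in WT and 101.8 in KO, *Vapb* at 18.7 and 18.8, *Kcnn2* at 15.3 and 15.0 and *Kcnk2* at 19.7 and 19.0. The smallest p of a list fell to *Lgi4* with a log2 fold change of 0.08, *Kcnj2* with -0.18, *Kcnk13* with -0.13 and *Hcn4* with 0.07 among those not yet named. *Kcne4* averaged 0.543 FPKM and was not tested. The share of list members called between title numbers was 4 of 9 for calcium- and sodium-activated channels, 3 of 10 for inward rectifiers, 3 of 8 for two-pore channels and 2 of 4 for HCN channels, with 30.6% over all genes tested.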

How the data were processed

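RNA was sequenced from 3 *Chrdl1* KO and 3 WT libraries of mouse visual cortex. The authors deposited 1 table of FPKM values per gene, counted over exons with transcripts condensed to 1 row per gene with HOMER on mm10, per the file headers. STAR 2.4.0k and HOMER 4.8.3 are named in the submitters' processing notes. Of 12 libraries in the header command, 6 are columns of the table and the rest were not analysed here. FPKM fixes the library total, so only relative levels can be compared.

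Low FPKM values fell in steps of 1 read, which gave the library totals, with 100% of checked values within 0.1 read of a whole number. Of these, 84.8% to 87.0% fell in genes, and a count of 0 in a 2000 bp gene allows 0.0393 to 0.0662 FPKM (3 reads as the upper limit, for counting error only).

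limma 3.58.1 (R 4.3.3) was fitted to log2(FPKM + 1), a scale that understates changes of low genes, with an intensity trend, over the 12863 genes with a mean of at least 1 FPKM. Tests were 2-sided with Benjamini-Hochberg adjustment over all of them. A second fit had genotype and title number as factors. The fit was tested on simulated data. Subfamily sums were not tested. Libraries sharing a title number deviated together from their genotype means (r = 0.43, 0.71 and 0.67 over tested genes). Other pairs were at -0.61 to -0.06. Deviations from a mean cancel within a genotype, so positive values for some pairs force negative ones for others. The numbers were taken to pair the libraries in the fit with the replicate block and in differences within title numbers. The main KO to WT fit left this pairing out, so differences between numbers count there as spread. Its median SE over all genes tested was 0.097, against 0.058 with the replicate block. No pair of libraries was a duplicate (chi-square per degree of freedom 2.72 at the lowest).

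The members and the gene lists were chosen with earlier results of these data known. Levels are given for the members, by library for members with a mean of at least 10 FPKM and for the 3 smallest p of each fit, and members under 1 FPKM by level only. A few genes that this rule takes are not reported here, although they stay in all counts and sums. From each other potassium channel list the 2 highest in level and the smallest p were named. Values by library of *Kcnh4*, *Kcnh7* and *Kcnd1*, and the genes that moved with title number, were chosen after their values were seen. Promoter sequences are from RefSeq and gene models from GENCODE M21. Alternatives were another pseudocount, no filter, median-ratio scaling, voom on the recovered reads, no trend, a replicate block and leaving out each library. Sums, counts and figures were made with matplotlib 3.10.9, pandas 2.3.3 and numpy 2.4.6 in Python 3.11.15, and permutations with scipy 1.17.1.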

Additional observations from a re-analysis of the deposited data

How the results depend on the processing

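No member was called between KO and WT under any alternative run. The number of all genes called was 1, and 2 with a pseudocount of 0.1 FPKM, 6 without the filter on low values, 2 without WT replicate 2, 4 without KO replicate 2, and 1 to 4 over all fits that left out 1 library. With the replicate block it was 1 gene and 0 members, and the block changed no call of a member. *Chrdl1* was called throughout, at log2 fold changes of -1.99 to -1.90 when a library was left out, -3.77 with a pseudocount of 0.1 FPKM and -4.43 with voom. Between title numbers, 1347 genes and 5 members were called without the filter, and 2038 to 3923 genes and 9 to 14 members with 1 library left out, the lowest gene counts being 2038 without WT replicate 1 and 2076 without KO replicate 1. Median-ratio scaling gave 11 members and 3803 genes, voom 18 and 4777, and no trend 10 and 3146.

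Of 396 log2 fold changes of members under the alternatives, 352 kept their direction and 44, in 24 members, reversed, each time with a library left out. Ranges over these fits were -0.13 to 0.0019 for *Kcna1*, -0.033 to 0.18 for *Kcna2*, -0.42 to 0.36 for *Kcna3*, -0.12 to 0.041 for *Kcna6*, -0.12 to 0.097 for *Kcnb2*, -0.22 to 0.13 for *Kcnc1*, -0.048 to 0.088 for *Kcnc2*. They were -0.14 to 0.087 for *Kcnd1*, -0.075 to 0.043 for *Kcnd2*, -0.0017 to 0.17 for *Kcnf1*, -0.011 to 0.17 for *Kcng2*, -0.087 to 0.18 for *Kcng4*, -0.091 to 0.065 for *Kcnh1*, -0.037 to 0.098 for *Kcnh3*. They were also -0.34 to 0.24 for *Kcnh5*, -0.39 to 0.31 for *Kcnh7*, -0.38 to 0.30 for *Kcnq3*, -0.13 to 0.030 for *Kcnq5*, -0.048 to 0.11 for *Kcns1*, -0.080 to 0.011 for *Kcns2*, -0.0057 to 0.13 for *Kcns3*. None of these values was called and the cause was not tested. *Kcna5* and *Kcnv1* kept their direction, at -0.37 to -0.19 and -0.20 to -0.10 with a library left out. *Kcna5*, at -0.26 with a pseudocount of 1 FPKM, was at -0.40 with 0.1 FPKM and at -0.44 with voom, and was called in neither.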
